A study of Drosophila melanogaster with 2 samples.

Results

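The Hedgehog pathway genes described here are 10 genes that carry a secreted signal from its release to its transcription factor: hh, disp, ptc, boi, ihog, smo, cos, fu, Su(fu) and ci. They were chosen by name, and each symbol matched 1 gene of the Ensembl annotation of BDGP6, so the set is 10 of 13968 protein-coding genes and of 18277 genes in all. The chromatin came from whole Drosophila melanogaster embryos of both sexes, 0 to 24 h old, of a transgenic line that stably expresses nmo fused at its C-terminus to GFP. It was sonicated to fragments of 200 to 800 bp and recovered by an anti-GFP antibody, and the DNA was sequenced (ChIP-seq). There is 1 group, with biological replicates 2 and 3, so no comparison between groups is implied and no test was made. A tagged transgene in embryos of all stages and cell types limits the group as a model: binding in few cells and weak binding in many cannot be told apart.

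Hedgehog (Hh) is a lipid-modified secreted protein that patterns embryonic segments and imaginal discs of the fly. Without Hh, the receptor Patched (Ptc) keeps the membrane protein Smoothened (Smo) inactive, and the transcription factor Cubitus interruptus (Ci) is cut into a repressor. When Hh binds Ptc and its co-receptors Ihog and Boi, Smo acts through a complex of Costa, the kinase Fused and Suppressor of fused, and uncut Ci switches on target genes, ptc among them. The tagged protein, Nemo, is a serine/threonine kinase. In the embryonic ectoderm hh is made in the posterior compartment of each segment and ci in the anterior compartment, while smo, fu and Su(fu) are used widely.

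The stretches of DNA around the summits that the results turn on are printed first, each 5′ to 3′ on the strand of the named gene, from the RefSeq copy of Release 6, whose coordinates are those of dm6. A summit is the position of a peak's highest signal. The hh promoter stretch (chr3R:23141982-23142132, minus strand) is shown because its peak stayed below the reproducible list. The hh upstream stretch (chr3R:23149114-23149264, minus strand) is shown because its peak is in that list and is closer to the start of hh than to any other start. Capitals there mark TGGGTGGTC, which is GACCACCCA, a binding sequence of Ci and its vertebrate Gli relatives, read on the other strand. The fu stretch (chrX:18657531-18657681, plus strand) is the weakest transducer peak that entered the reproducible list. The Su(fu) stretch (chr3R:12691558-12691708, minus strand) has the lowest G and C content of the members' promoter peaks, and capitals mark TATAAA. The boi stretch (chrX:2447867-2447896, minus strand) holds the members' promoter match to the DNA replication-related element (DRE), in capitals.
hh promoter: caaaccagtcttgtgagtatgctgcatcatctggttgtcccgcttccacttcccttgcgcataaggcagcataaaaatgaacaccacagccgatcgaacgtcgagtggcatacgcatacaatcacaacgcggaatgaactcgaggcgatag
hh upstream: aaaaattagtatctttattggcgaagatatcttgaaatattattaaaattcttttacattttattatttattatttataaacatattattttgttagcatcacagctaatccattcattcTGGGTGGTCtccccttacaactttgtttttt
fu promoter: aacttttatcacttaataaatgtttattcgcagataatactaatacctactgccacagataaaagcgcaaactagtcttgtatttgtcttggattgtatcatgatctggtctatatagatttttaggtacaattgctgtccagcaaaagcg
Su(fu) promoter: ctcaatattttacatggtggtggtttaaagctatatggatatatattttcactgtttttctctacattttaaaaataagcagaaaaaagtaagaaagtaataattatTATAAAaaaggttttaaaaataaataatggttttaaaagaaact
boi DRE: catcactaatcTATCGATAatgttggtctt

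The transducers and the release and reception genes mostly had a peak of the authors' reproducible list at their start. The genes hh, ci and ihog did not. Of the 10 members, 7 had a summit of the reproducible list within 1000 bp of a transcription start site (TSS), against 43.8% of all protein-coding genes. They were smo, cos, fu and Su(fu) among the transducers, and disp, ptc and boi among the release and reception genes. The share over all genes is not matched on gene arrangement. A protein-coding gene starts on the other strand within 1000 bp upstream at 6 of the 10 members, against 5052 of 13968 genes. The reproducible list was thresholded by the authors on how well peak ranks repeat between replicates (the irreproducible discovery rate, IDR). It holds 9299 peaks, which are the 9299 strongest of the authors' pooled list of 30000. Peak strength is the authors' own signal value per peak, on a scale that differs between lists, so values are compared within a list only. The lowest value that entered the IDR list was 166, and the median IDR peak had 333.

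All 10 members had a weaker or stronger promoter summit in the pooled list, against 61.8% of all protein-coding genes. The count was also 10 in the full list of replicate 2 (62.2% of all genes) and 10 in that of replicate 3 (61.1%). A summit in both replicate lists was found for 10 members, against 55.7% of all genes. These full lists have 30000 peaks each and reach far down in strength: 46.2% of pooled peaks had a deposited q-value over 0.05. With q of 0.05 or lower, 9 members kept a pooled promoter summit, against 53.7% of all genes, and ci was the exception. Of the 9299 strongest peaks of each replicate, replicate 2 gave 8 members with a promoter summit (44.7% of all genes), hh among them. Replicate 3 gave 7 members (42.3% of all genes), without hh.

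The ligand gene hh (FBgn0004644) has 1 TSS and lies on chromosome 3R at 23128169 to 23141906, minus strand, with no protein-coding gene starting on the other strand within 1000 bp upstream. Its promoter summit lay at -151 bp from the TSS in the pooled list, where a minus sign means upstream, with a signal value of 136 and rank 10806 of 30000. In replicate 2 it had 89.9 (rank 7334, at -187 bp), and in replicate 3 it had 50.2 (rank 14982, at -214 bp). The replicates thus place it on opposite sides of rank 9299, and the pooled value is below the IDR minimum of 166. Among all genes with a promoter summit, hh stood at percentile 24.5 in the pooled list, 37.2 in replicate 2 and 17.6 in replicate 3. The printed hh promoter stretch held none of the 8 motifs searched.

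The IDR summit closest to hh's start lay far upstream. It was at -7283 bp from the TSS, had a pooled signal value of 305 (rank 5137) and was nearer to the hh TSS than to any other. In replicate 2 its value was 109 (rank 5847) and in replicate 3 it was 196 (rank 4967), so both replicates held it among their stronger peaks. This distal peak was stronger than hh's own promoter peak in all 3 lists. The other 2 IDR summits within 10 kb of hh lay downstream and sat at starts of neighbours, CG31457 (362, 8 bp after its TSS) and CG31365 (184, 37 bp after its TSS). The pooled list held 22 summits over the hh locus, 9 of them in the gene's introns. Of the 22, 9 had a q of 0.05 or lower, and of the intronic ones 2 did, the strongest with 122.

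The transcription factor gene ci (FBgn0004859) lies on chromosome 4 at 47710 to 57041, minus strand, with TSSs at 56331 and 57041. Its promoter summit was the weakest of the 10 members in every list. The pooled summit was at -47 bp from the downstream TSS, with 72.6 (rank 17072) and a −log10 q of 1.1, which misses a q of 0.05. Replicate 2 placed a summit at -45 bp from the same TSS with 54.9 (rank 11783), whereas replicate 3 had 25.0 (rank 25866), 73 bp after the other TSS. The replicate summits are at different starts, so a promoter peak of ci was not repeated at 1 position. The percentiles among genes with a promoter summit were 11.8 in the pooled list, 20.7 in replicate 2 and 3.64 in replicate 3.

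Upstream of ci the IDR list held 2 summits. The one at -3515 bp from the most upstream TSS was nearest to ci, with a pooled value of 213 (rank 7461), 54.3 in replicate 2 (rank 11907) and 122 in replicate 3 (rank 7862). The one at -6525 bp had 279 (rank 5659), with 93.8 in replicate 2 and 185 in replicate 3, and was nearer to snoRNA:CD-24. Both were stronger than the ci promoter summit in the pooled list and in replicate 3. In replicate 2 the nearer one was about level with the promoter summit. The downstream IDR summit (462, rank 2963) lay at -101 bp from a TSS of PlexB, the neighbouring plexin gene. Introns of ci held no summit in the IDR, pooled or replicate 3 lists, and 2 weak ones in replicate 2 (29.1, rank 20435, and 20.6, rank 27449).

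The transducer smo encodes the membrane protein that relays the signal inward; the gene (FBgn0003444) lies on chromosome 2L at 277582 to 282167, plus strand. Its promoter summit was at -159 bp with 513 in the pooled list (rank 2519), 218 in replicate 2 (rank 1973) and 291 in replicate 3 (rank 3051). That is percentile 73.9 of genes with a promoter summit in the pooled list. The kinase gene fu (FBgn0001079) lies on X at 18657755 to 18661204, plus strand. Its summit was at -149 bp with 196 in the pooled list (rank 8099), 86.1 in replicate 2 (rank 7691) and 106 in replicate 3 (rank 8835). It was the weakest transducer in every list, near the IDR minimum. Su(fu) (FBgn0005355), which encodes a protein that holds Ci back, lies on 3R at 12689873 to 12691468, minus strand. Its summit was at -165 bp with 279 in the pooled list (rank 5657), 128 in replicate 2 (rank 4706) and 162 in replicate 3 (rank 6099). The pooled Su(fu) summit was nearer to the TSS of Arp1, an actin-related gene on the other strand, at -110 bp from it.

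The scaffold gene cos (FBgn0000352), which encodes a kinesin-like protein, lies on 2R at 7382176 to 7387115, minus strand. Its promoter summit was the strongest of the members in the pooled list, at -163 bp with 568 (rank 2161). It had 211 in replicate 2 (rank 2091) and 353 in replicate 3 (rank 2297). The same summit was at -46 bp from a TSS of Dhx15, a helicase gene that starts 72 bp away on the other strand, and it was counted for both genes.

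Set beside the transducers, hh and ci had lower promoter signal values, with 1 exception. In the pooled list hh had 0.344 times and ci 0.183 times the transducers' median of 396, and both were below the lowest transducer, fu. In replicate 3 hh had 0.222 times and ci 0.11 times the transducers' median of 226, again both below fu. In replicate 2 hh had 0.529 times and ci 0.324 times the median of 170, but hh was 1.04 times fu. So the ranges of the pair and the transducers did not overlap in the pooled list or in replicate 3, and met in replicate 2 at hh and fu. A low value was not particular to the pair. The co-receptor gene ihog was below fu in the pooled list (134 against 196), replicate 2 (68.5 against 86.1) and replicate 3 (78.7 against 106). Of the 4 transducer values, that of cos comes from a summit nearer to Dhx15 in each list. That of Su(fu) comes from a summit nearer to Arp1 in the pooled list and in replicate 2, but not in replicate 3. Neither cos nor Su(fu) has an IDR promoter summit when a summit counts only for its nearest TSS. These are descriptions of 6 genes that were chosen by role, not tested differences, and the genes were not matched on expression level.

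**Figure D1:**
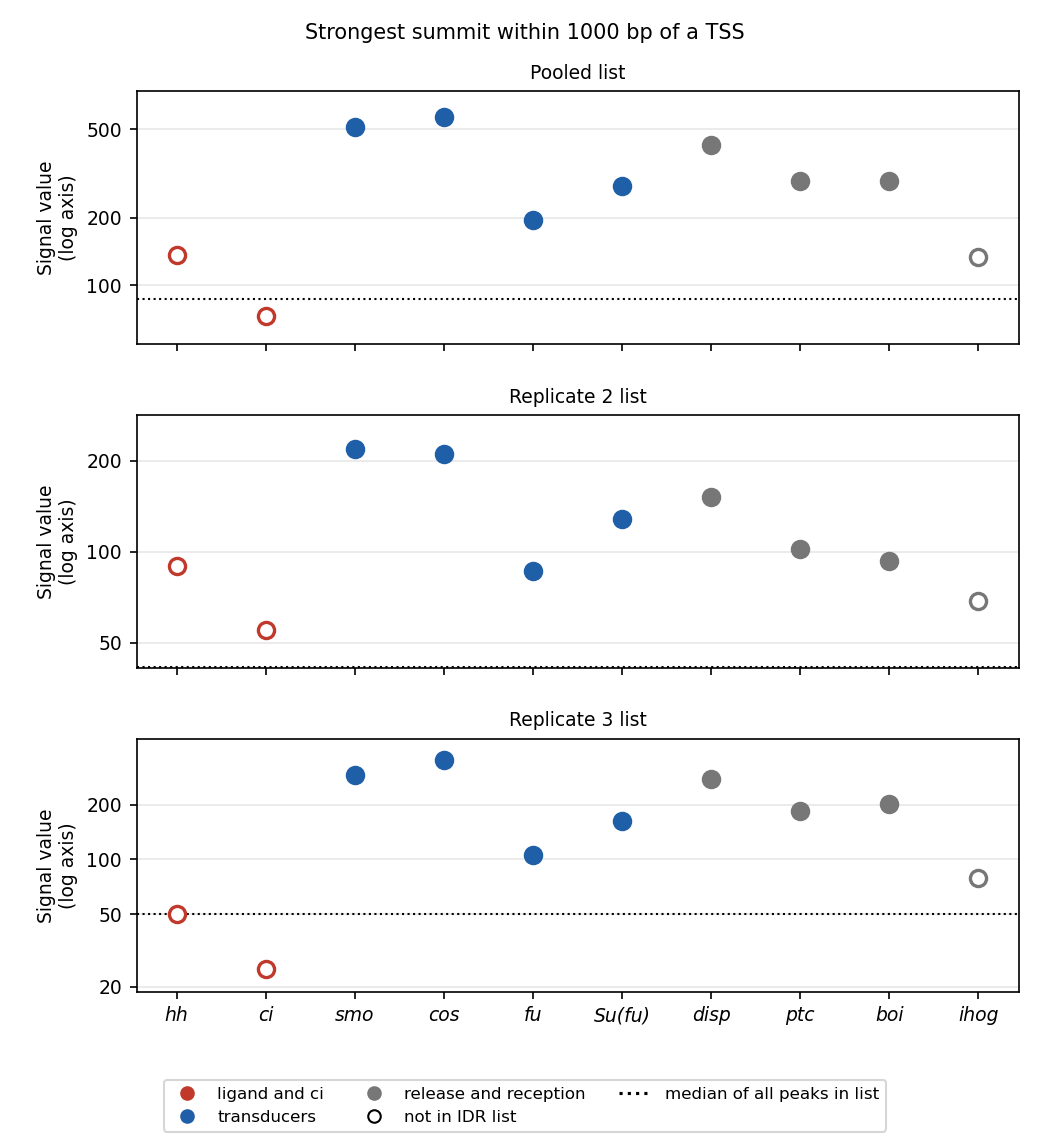
Strongest summit within 1000 bp of a TSS of each member in the pooled, replicate 2 and replicate 3 lists, as the authors' signal value on a log axis that differs between panels; filled points have an IDR summit, open points do not, and the dotted line is the median of all peaks in the list. In each panel ci is lowest, and hh is below all 4 transducers except in replicate 2, where it has 89.9 and fu has 86.1.

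The order of all 10 members was partly the same in both replicates. From high to low, replicate 2 gave smo, cos, disp, Su(fu), ptc, boi, hh, fu, ihog and ci, and replicate 3 gave cos, smo, disp, boi, ptc, Su(fu), fu, ihog, hh and ci. The positions of disp, ptc and ci were the same in both. Members whose relative order differed between the replicates, and so cannot be ordered with these 2, were smo with cos, hh with fu and with ihog, and ptc, boi and Su(fu) among themselves.

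Among the release and reception genes, disp (FBgn0029088), whose product releases Hh from the cells that make it, lies on 3R at 5849697 to 5856311, minus strand. Its promoter summit was at -135 bp with 422 in the pooled list (rank 3372), 152 in replicate 2 (rank 3670) and 275 in replicate 3 (rank 3295). Its rank thus changed little between the lists. The co-receptor gene boi (FBgn0040388) lies on X at 2444167 to 2470043, minus strand, with TSSs at 2447892 and 2470043. Its promoter summit was at -15 bp from the downstream TSS with 291 in the pooled list (rank 5395), 93.3 in replicate 2 (rank 7044) and 201 in replicate 3 (rank 4848). That start is the one with the printed DRE, 10 bp into the transcript, and lies 64 bp from a start of the gene z on the other strand. The upstream TSS had no promoter summit in the IDR, pooled or replicate 3 lists, and in replicate 2 it had one 66 bp after it (68.5, rank 9656). A stronger summit lay 1273 bp inside the gene from that TSS, with 669 in the pooled list (rank 1667), 214 in replicate 2 (rank 2029) and 449.8 in replicate 3 (rank 1572).

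The other co-receptor gene, ihog (FBgn0031872), lies on 2L at 6945464 to 6948808, minus strand. Its promoter summit had 134 in the pooled list (rank 10961, at -74 bp), 68.5 in replicate 2 (rank 9654) and 78.7 in replicate 3 (rank 10982). Both replicates placed it below rank 9299, so ihog, unlike hh, missed the strongest peaks in each. The 2 co-receptor genes therefore differed in the pooled list by 291 against 134. Close upstream of ihog, IDR summits at -1409 bp (228) and -1620 bp (217) lay at -10 bp from a TSS of Gas41 and 7 bp after one of SA1.

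The receptor gene ptc (FBgn0003892) lies on 2R at 8649649 to 8665223, plus strand, and is itself a target of Ci. It was the member with the most summits: 9 IDR summits and 31 pooled ones from 10 kb before the gene to 10 kb after it. The loci differ in length, and per 10 kb the IDR list held 2.85 summits at smo and 2.53 at ptc. In the pooled list ptc had 8.71 per 10 kb, the highest of the members. The promoter summit, at -266 bp, had 291 in the pooled list (rank 5391), 102 in replicate 2 (rank 6374) and 185 in replicate 3 (rank 5291). The summit at -5260 bp was stronger, with 930.1 (rank 947), 329 in replicate 2 (rank 925) and 606 in replicate 3 (rank 959), and no other gene's TSS was nearer. Of the 3 intronic IDR summits, the one 2798 bp into the gene was strongest, with 522 (rank 2458), 175 in replicate 2 and 353 in replicate 3. It was nearer to a start of lncRNA:CR44281, at -951 bp from it. The other intronic IDR summits and the downstream ones were also nearer to a start of another gene. Among all summits at member loci the highest was downstream of ptc, with 1533 (rank 370), 487 in replicate 2 (rank 421) and 1046 in replicate 3 (rank 342), at -1419 bp from a TSS of Acsl, an acyl-CoA synthetase gene. A summit more than 5 kb upstream had a higher signal value than the promoter summit in all 3 lists at ptc and hh, and also at smo, Su(fu), ihog and ci. At ptc and hh that summit was nearest to the member's own TSS, and at the other 4 it was nearest to a TSS of another gene.

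Intronic summits were found at the members with long introns. Of 8 members with intron sequence more than 1000 bp from a TSS, 2 had an IDR summit there, ptc with 3 and boi with 2, against 15.1% of eligible genes. In the pooled list the count was 3 of 8, with hh added, against 27.6%. The eligible length was 11232 bp in hh, 9955 bp in ptc, 19265 bp in boi and 3181 bp in ci, and at most 1330 bp in the other 4. In boi the pooled list held 10 intronic summits, of which 5 had a q of 0.05 or lower; in ptc 7 of 12 did, and in hh 2 of 9.

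Within 10 kb outside the gene, every member had an IDR summit, and most of these were nearer to a TSS of another gene. The count was 10 of 10, against 75.0% of all protein-coding genes, and also 10 of 10 in the pooled list, against 89.6%. Over all members the IDR list held 43 summits: 7 at promoters, 5 in introns and 31 in the flanks, 15 of these upstream and 16 downstream. Of the 31 flanking summits, 3 were nearest to the member's own TSS, 1 each at hh, ptc and ci. The others were nearer to another gene's TSS, in some cases kilobases from it, as with the cos flank summit 9365 bp after a TSS of Dscam1; summits downstream of a long gene are far from its TSS by construction. Upstream of smo, for example, the strongest summit (1190.0, rank 609) was at -146 bp from a TSS of CG17075. Each of the 43 IDR summits had a summit within 200 bp in the full lists of both replicates. The ranks ran from 421 to 11907 in replicate 2 and from 342 to 15132 in replicate 3. The ihog summits at -1409 and -1620 bp were matched to the same replicate 2 summit. The IDR list is itself derived from both replicates, so the matches are not independent of it.

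**Figure D2:**
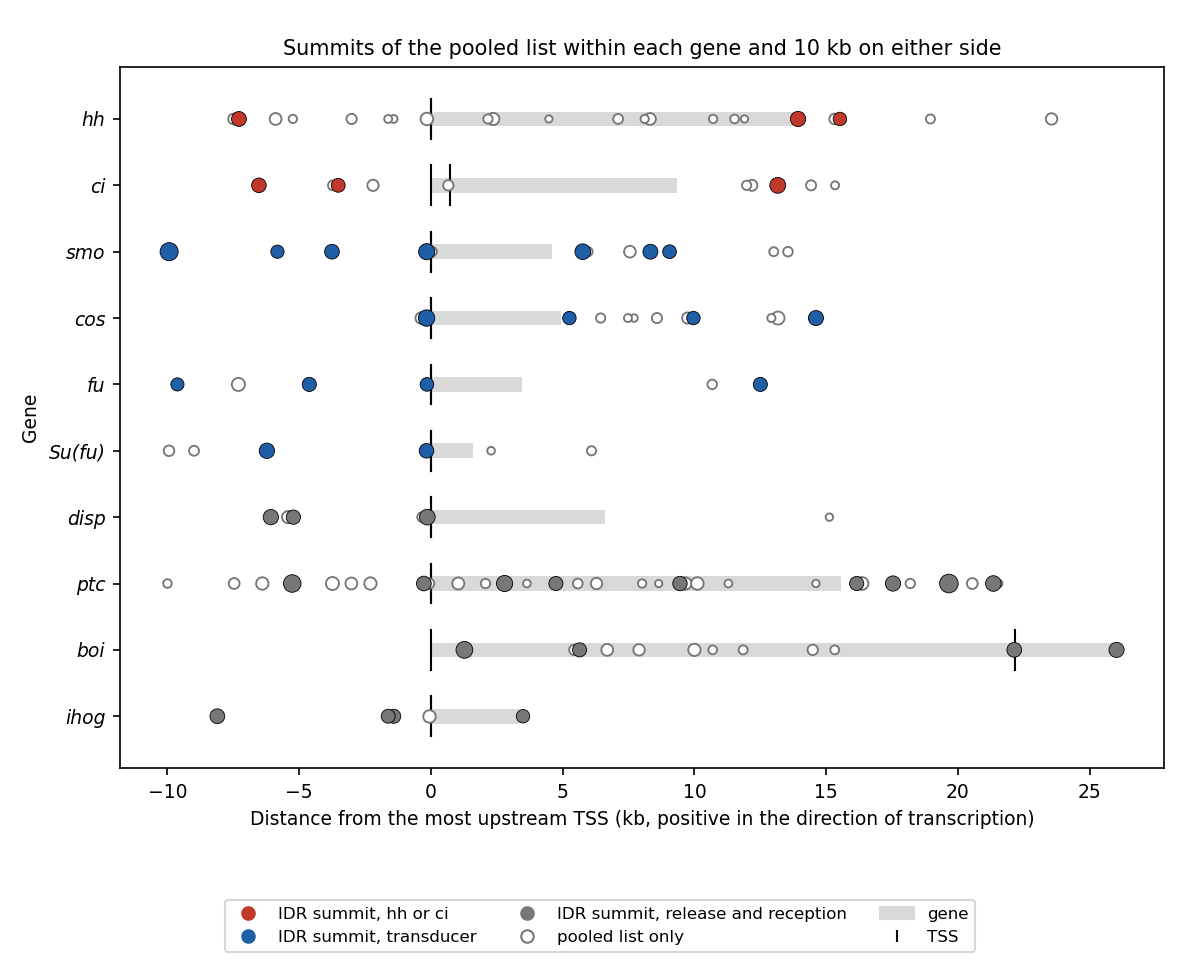
Summits of the pooled list at each member, by distance in kb from its most upstream TSS in the direction of transcription; filled points are also in the IDR list, open points are not, larger points have a higher signal value, grey bars are genes and black ticks TSSs. At hh and ci the filled points lie outside the gene and away from the TSS, at the 4 transducers 1 filled point lies at the TSS, and ptc has the most summits (31).

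An IDR promoter summit was more frequent where a start faces a protein-coding gene, among the members as over all protein-coding genes. Members whose start faces a protein-coding gene on the other strand, less than 1000 bp upstream, had a promoter summit in 6 of 6 cases, against 73.0% of the 5052 genes so arranged. The neighbours were ECSIT at 274 bp for disp, z for boi, CG17078 at 370 bp for smo, Dhx15 for cos, CG6659 at 469 bp for fu and Arp1 at 275 bp for Su(fu). Of the 4 members without such a neighbour, 1 had an IDR promoter summit, ptc, against 27.3% of 8916 genes. For ci the close opposite start is that of a noncoding gene, asRNA:CR43957, 166 bp away. All 4 transducers have a facing neighbour and hh and ci have none, so gene arrangement and role cannot be told apart in these 10 genes.

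Motif matches at the members' promoter peaks are given beside the shares over all IDR promoter summits. No difference from these shares was tested. Windows of 201 bp centred on each member's strongest pooled promoter summit were searched on both strands for 8 motifs. The summits of hh, ci and ihog are not in the IDR list, while the shares given for such windows are of IDR promoter summits. DRE (TATCGATA) was in the window of boi and of no other member, against 9.92% of 5272 windows of IDR promoter summits. The sequence bound by the GAGA factor, searched as GAGAG, was found in the windows of ptc (4 matches), boi and ci, against 17.8%. The core of sites bound by Pho, a Polycomb-group protein, was searched as GCCAT and was found in the windows of ptc, smo and ci, against 26.1%. The TATA motif, with the letters marked in the printed Su(fu) stretch, was found in the windows of ptc and Su(fu), against 37.1%. The other motifs were in none of the members' summit windows: Motif 1 core (GGTCACAC, 7.45% of windows), the Ci/Gli site (0%), an E-box searched as CAGCTG (11.8%) and the site of the early activator Zelda, searched as CAGGTAG (0.531%). The summit windows of hh, disp, ihog, cos and fu held none of the 8. In windows of 301 bp set on the TSS instead, disp held an E-box, against 17.9% of 19276 such windows, disp, ihog, ptc, smo, Su(fu) and ci held a Pho core, against 41.1%, and ihog and Su(fu) held the TATA motif, against 42.3%. DRE was again in boi (7.98% of such windows) and the GAGA sequence again in ptc, boi and ci (33.2%). Those of hh, cos and fu held none of the 8. No match says only that these letters are not in the window.

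The Ci/Gli sequence was in 1 of the 43 IDR summit windows at member loci, the one upstream of hh. Its centre was at -7234 bp from the TSS, on the side of the summit towards the gene, as printed in capitals above. Across the IDR list 2 of 9299 summit windows held it (0.0215%), and 0.125% of 19276 windows of 301 bp at protein-coding starts did. This match was noticed after the counts were seen, and it describes letters only, not binding by Ci. The same window held 2 matches to the TATA motif, 1 on each strand and overlapping, at the summit itself; they are in lower case in the printed stretch. DRE was in 8 of the 43 windows, against 5.9% of all IDR summit windows and 9.92% of those at promoters. Of these 8, 7 lay outside members' promoters. Except for the one at ci, their summits were at -141 to 40 bp from a TSS of a neighbouring gene. These neighbours were CG31457, Gas41, CG13775, Dus1, Ing3 and Past1.

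The G and C content of the 201 bp windows at the promoter summits was 50.2% for hh and 39.3% for ci, and for the transducers 37.8% for smo, 36.3% for cos, 32.3% for fu and 23.4% for Su(fu). For disp it was 36.8%, for ptc 41.8%, for boi 34.8% and for ihog 43.3%. The quartiles over IDR promoter summits, which do not include those of hh, ci and ihog, were 29.9%, 34.8% and 40.3%. So hh, ihog and ptc were above the upper quartile, and Su(fu) was below the lower one. A part of base composition in the low promoter signal values of hh and ihog was not tested.

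Beyond the 10 members, 31 genes that act on the pathway or respond to it were examined in 3 lists. Of these, 25 had an IDR promoter summit (80.6%, against 43.8% of all protein-coding genes). A gene counted if any of its TSSs had one, and single genes had up to 6 such summits. The genes were not matched on number of TSSs or on facing neighbours. The median signal of the strongest promoter summit in these 25 was 404, against 407 over all 6122 genes with one, whose quartiles were 271 and 669. The regulators of Smo and Ci, which are kinases and proteins of the ubiquitin system and others, had a summit in 14 of 14 cases with a median of 444. The strongest was Gprk2, the gene of a G protein-coupled receptor kinase (4986, rank 13, in a summit shared with PNPase). Next were gish, a casein kinase gene (3644, rank 34), and sgg, the GSK3 kinase gene (1806, rank 242). Of the 8 genes for release and spreading of Hh, 5 had one, with a median of 366. The highest were sotv (913, rank 968) and ttv (366, rank 4130), which encode enzymes that build heparan sulphate chains, and dlp (840, rank 1134), which encodes a glypican that carries them. The genes without one were rasp, the acyltransferase gene for Hh, shf, a gene of the Wnt inhibitory factor family, and the glypican gene dally.

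Of the 9 target genes, 6 had an IDR promoter summit, with a median of 229. The highest were wg, the segment polarity Wnt gene, with 333 (rank 4649, at -161 bp), the protease gene rho with 310.2 (rank 5056, 846 bp after a TSS), and en, a homeodomain gene, with 232 (rank 6897). Those without were dpp, kn and vn, whose pooled promoter summits had 107, 91.5 and 123. These 3 encode the BMP ligand Dpp, the transcription factor Knot and the EGF receptor ligand Vein, and their values were below the IDR minimum of 166. Of the genes with intron sequence more than 1000 bp from a TSS, an intronic IDR summit was in 7 of 9 target genes, 5 of 6 release and spreading genes and 3 of 14 regulators, against 15.1% of all eligible genes. These introns differ widely in length, which was not matched. In the pooled list 30 of the 31 had a promoter summit (61.8% of all genes), with shf the exception, and the counts were 31 in replicate 2 (62.2%) and 29 in replicate 3 (61.1%).

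**Figure D3:**
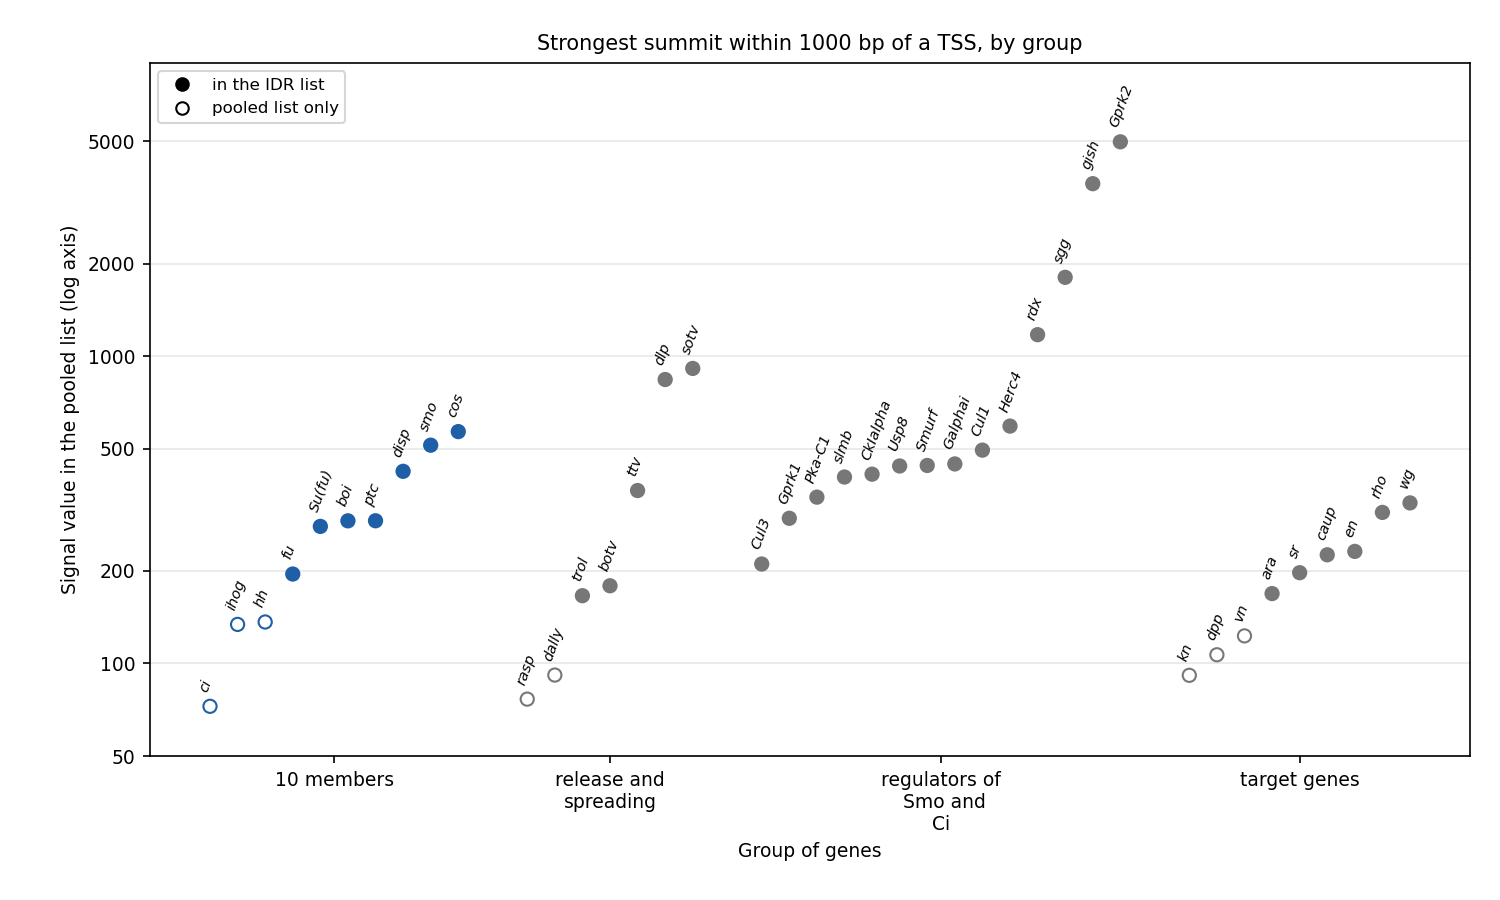
Signal value in the pooled list (log axis) of the strongest summit within 1000 bp of a TSS, for the 10 members and for the 3 lists of other pathway genes; filled points have an IDR promoter summit, open points do not, and shf has no pooled promoter summit. The 10 members run from 72.6 for ci to 568 for cos, all 14 regulators of Smo and Ci are filled, and kn, dpp and vn are open among the target genes.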

How the data were processed

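Anti-GFP ChIP-seq of nmo-GFP embryos was deposited as 4 narrowPeak lists on dm6: replicate 2, replicate 3, their pool and an IDR list. Per the deposited text notes, the authors derived each list from alignments and 1 further file. Which aligner and peak caller they used, with what settings and IDR threshold, is not given in the sources used here. As deposited by the authors, column 7 is each peak's signal value, in arbitrary units. The authors' −log10 q-value, as deposited in column 9, reaches at most 4.27. Read depth is unknown, and no input or untagged control was analysed here.

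Summits (column 2 plus column 10, printed 1-based) were counted for every gene with a TSS within 1000 bp, in introns, or within 10 kb outside the gene, so 1 summit can count for several genes. Genes came from the Ensembl annotation of BDGP6 without transposable elements, and no peak lay beyond a chromosome end. Neighbouring summits were never closer than 199 bp, so adjacent summits can share a site. Counting at promoters and in flanks was checked on simulated summits at longer genes with a single TSS. Introns, exons, short genes and genes with several TSSs were not part of that check. The tools were Python 3.11.15, numpy 2.4.6 and pandas 2.3.3.

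The members, lists, motifs and rules were chosen with earlier results of these data known. All 10 members are named; of the other lists, the 3 strongest and those without an IDR promoter summit; and neighbours nearer to a summit than the member. Alternatives were other distances, interval overlap, other peak sets, each replicate alone, protein-coding transcripts only, a 5 kb flank and, added after the data were seen, the nearest TSS only.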

Additional observations from a re-analysis of the deposited data

How the results depend on the processing

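Each result was recomputed under each alternative setting that applied to it, and each pair of a result and a setting was compared with the main value. For the results over members, lists and all genes, 84 pairs kept the value within the limit used (1.5 times for counts) and 15 moved it. Some kept values, such as promoter summits of hh and ci, were 0 under both settings. With the stronger 4649 IDR peaks, 3 members had a promoter summit (smo, cos and disp), among them 2 transducers and 1 release and reception gene; 16 of the other 31 pathway genes and 27.5% of all protein-coding genes had one, and 17 summits lay at member loci. With all pooled peaks, hh and ci had 1 promoter summit each and member loci held 122 summits; with q of 0.05 or lower hh had 1 and the loci held 72. Leaving out a replicate, hh had 0 to 1 promoter summits: 1 without replicate 3 and 0 without replicate 2. Counting a summit only for its nearest TSS was added after the data were seen. It left 5 of the 10 members with a promoter summit, against 31.8% of all protein-coding genes. Of the transducers 2 were left, since the cos and Su(fu) summits go to Dhx15 and Arp1. The highest member value was then 513, for smo. With a promoter window of 2 kb the highest was 669, the boi summit. Signal values of a replicate alone were not compared, since their scale differs. For single members' values, 67 such pairs stayed and 13 moved. No paired analysis was possible because there is 1 group. Without read counts, no interval could be given, and a peak missing from the IDR list is not absent binding.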
